A study of Mus musculus with 48 samples.

Results

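The 568 regions described here were sites of open chromatin that thymic iNKT2 and iNKT17 cells had in common and that were less accessible in thymic iNKT1 cells. They were chosen from accessibility values alone, out of 54524 regions counted in all. A region up to 10000 bp wide was taken where its mean ATAC CPM (the count scaled by the library total, averaged over 2 libraries) was at least 10 in both iNKT2 and iNKT17 cells, where both means were at least 4 times the iNKT1 mean, and where both means lay within a factor of 2 of each other. The accessibility values below therefore describe the choice and carry no test; RNA was not used to choose the regions. ATAC-seq and RNA-seq had been run on freshly sorted iNKT2, iNKT17 and iNKT1 cells from thymi of FVB/N mice, with 2 libraries per sublineage and assay, and no allele or treatment is given for these cells. The wider study also covered single thymic iNKT cells and donor T cells after transplantation, which were not analysed here.

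The iNKT cell, or invariant natural killer T cell, is a T lymphocyte whose nearly invariant antigen receptor reads glycolipids on CD1d. Such cells mature in the thymus into iNKT1 cells, which depend on the transcription factor T-bet and make interferon-γ, iNKT2 cells, which make IL-4, and iNKT17 cells, which depend on RORγt and make IL-17. ATAC-seq reads DNA released by a transposase from accessible chromatin, so its regions include promoters at gene starts and distal elements within and between genes, through which transcription factors act on nearby or distant genes.

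The table gives positions and no sequence, and 39 RefSeq promoter windows (GRCm38.p6, 250 bases before to 50 after a gene start) lay wholly inside shared regions, at 38 genes. The 5 printed here were picked after their values were seen, as promoters that are among the strongest or the most contrasted shared regions, or, for Ccr4, whose gene also passed the RNA test. They lie at chr9:114496495-114496794 (minus strand, Ccr4), chr9:51213440-51213739 (plus strand, Pou2af1), chr13:28953650-28953949 (minus strand, Sox4), chr1:182763966-182764265 (plus strand, Susd4) and chr13:9276275-9276574 (plus strand, Dip2c). Capitals mark matches to any of the motifs searched, on either strand.
Ccr4: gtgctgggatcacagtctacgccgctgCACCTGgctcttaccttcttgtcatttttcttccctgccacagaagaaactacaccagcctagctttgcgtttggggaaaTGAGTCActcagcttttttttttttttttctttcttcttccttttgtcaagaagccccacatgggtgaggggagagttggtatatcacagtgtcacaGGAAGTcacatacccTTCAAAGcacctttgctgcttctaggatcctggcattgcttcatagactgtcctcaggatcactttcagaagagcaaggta
Pou2af1: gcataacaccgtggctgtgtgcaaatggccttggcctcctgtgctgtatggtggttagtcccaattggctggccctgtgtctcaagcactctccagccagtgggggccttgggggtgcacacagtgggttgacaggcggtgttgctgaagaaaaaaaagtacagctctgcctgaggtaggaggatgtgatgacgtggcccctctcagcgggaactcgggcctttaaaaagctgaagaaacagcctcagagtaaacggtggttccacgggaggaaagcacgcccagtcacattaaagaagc
Sox4: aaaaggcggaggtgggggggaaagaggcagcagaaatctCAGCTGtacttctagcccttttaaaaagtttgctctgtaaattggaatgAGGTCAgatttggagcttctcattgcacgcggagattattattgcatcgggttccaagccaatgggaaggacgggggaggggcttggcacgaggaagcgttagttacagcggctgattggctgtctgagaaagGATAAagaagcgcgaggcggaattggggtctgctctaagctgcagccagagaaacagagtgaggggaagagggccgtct
Susd4: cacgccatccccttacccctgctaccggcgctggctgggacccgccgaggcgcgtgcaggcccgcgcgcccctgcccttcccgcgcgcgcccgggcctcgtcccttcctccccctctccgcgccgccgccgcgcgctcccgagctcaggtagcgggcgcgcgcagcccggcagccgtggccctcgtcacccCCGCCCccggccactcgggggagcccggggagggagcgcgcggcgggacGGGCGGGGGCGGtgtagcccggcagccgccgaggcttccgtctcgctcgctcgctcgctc
Dip2c: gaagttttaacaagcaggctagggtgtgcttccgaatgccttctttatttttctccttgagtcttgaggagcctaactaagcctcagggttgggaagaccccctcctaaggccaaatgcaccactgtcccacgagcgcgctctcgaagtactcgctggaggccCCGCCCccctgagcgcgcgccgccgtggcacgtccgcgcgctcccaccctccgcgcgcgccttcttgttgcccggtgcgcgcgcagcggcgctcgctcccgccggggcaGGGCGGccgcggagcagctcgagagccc
The motifs were GATA (GATAA), ROR (AGGTCA), RUNX (TGTGGT), E-protein (CAGCTG or CAGGTG), AP-1 (TGANTCA), ETS (GGAAGT), TCF/LEF (CTTTGAA), T-box (GGTGTGA), EGR (GTGGGCG), Maf (TGCTGAC) and KLF/SP (GGGCGG). The Ccr4 window held 1 match each for E-protein, AP-1, ETS and TCF/LEF, and the Sox4 window 1 each for GATA, ROR and E-protein. Susd4 had 3 KLF/SP matches and Dip2c 2, and none of these letters occurred in the Pou2af1 window.

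Over the 39 windows, KLF/SP letters occurred in 56.4%, against 35.7% of all 32851 promoter windows, E-protein letters in 46.2% against 32.9%, and EGR letters in 20.5% against 7.97%. RUNX letters occurred in 5.13% against 16.8%. The other motifs stood at 20.5% against 25.4% for GATA, 15.4% against 16.3% for ROR, 20.5% against 23.8% for ETS, 10.3% against 7.81% for AP-1, 5.13% against 5.14% for TCF/LEF, 5.13% against 3.98% for T-box and 5.13% against 4.67% for Maf. Median GC content was 65% in the 39 windows and 52.7% in all windows, and its part in these shares was not tested. Matching letters are a description and no evidence of binding.

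Library totals over ATAC regions were 17373112 and 13299586 for iNKT2, 18371274 and 34813023 for iNKT17, and 42964216 and 25502839 for iNKT1, and RNA totals ran from 26811373 to 33688697. The summed RNA markers of each sublineage were highest in its own libraries, with exceptions among single genes. The 7 iNKT2 markers summed to 1813 and 1711 CPM in iNKT2, 767 and 1053 in iNKT17 and 298 and 343 in iNKT1 libraries. The 7 iNKT17 markers summed to 10.4 and 19.9 CPM in iNKT2, 6437 and 5294 in iNKT17 and 1.96 and 1.198 in iNKT1 libraries. The 7 iNKT1 markers summed to 211 and 232 CPM in iNKT2, 787 and 769 in iNKT17 and 4335 and 3901 in iNKT1 libraries. Within these lists, the iNKT1 marker Klrb1c, the NK1.1 receptor, was highest in iNKT17, at 0.372 and 8.66 CPM in iNKT2, 505 and 461 in iNKT17 and 335 and 241 in iNKT1 libraries, and the iNKT2 marker Gata3 overlapped between all 3 (values given with its region). The iNKT2 markers Zbtb16 and Il17rb overlapped between iNKT2 and iNKT17 libraries. Zbtb16 measured 740 and 522 CPM in iNKT2, 544 and 589 in iNKT17 and 96.0 and 46.7 in iNKT1 libraries. Il17rb measured 137 and 155 CPM in iNKT2, 56.3 and 163 in iNKT17 and 0 and 0 in iNKT1 libraries. B cell, myeloid and immature thymocyte lists summed to at most 20.8 CPM in any library.

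The shared regions were of moderate height. Their mean CPM had a median of 16.98 in iNKT2 cells (lowest 10.0, highest 69.0), 16.3 in iNKT17 cells (10.0 to 79.7) and 2.15 in iNKT1 cells (0.230 to 13.1). The lower of the iNKT2 and iNKT17 means was a median of 7.07 times the iNKT1 mean, and at most 69.3 times. In all 568 regions each of the 4 iNKT2 and iNKT17 libraries stood above both iNKT1 libraries, and in 410 the lowest of the 4 was at least 4 times the higher iNKT1 library. All 4 libraries reached 10 CPM in 468 regions, and the iNKT1 mean was under 1 CPM in 76. Over all regions up to the width limit the iNKT1 libraries were also lower, at medians of 5.84 and 5.57 CPM. The medians there were 7.83 and 7.14 CPM in iNKT2 and 7.57 and 7.96 in iNKT17 libraries.

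**Figure D1:**
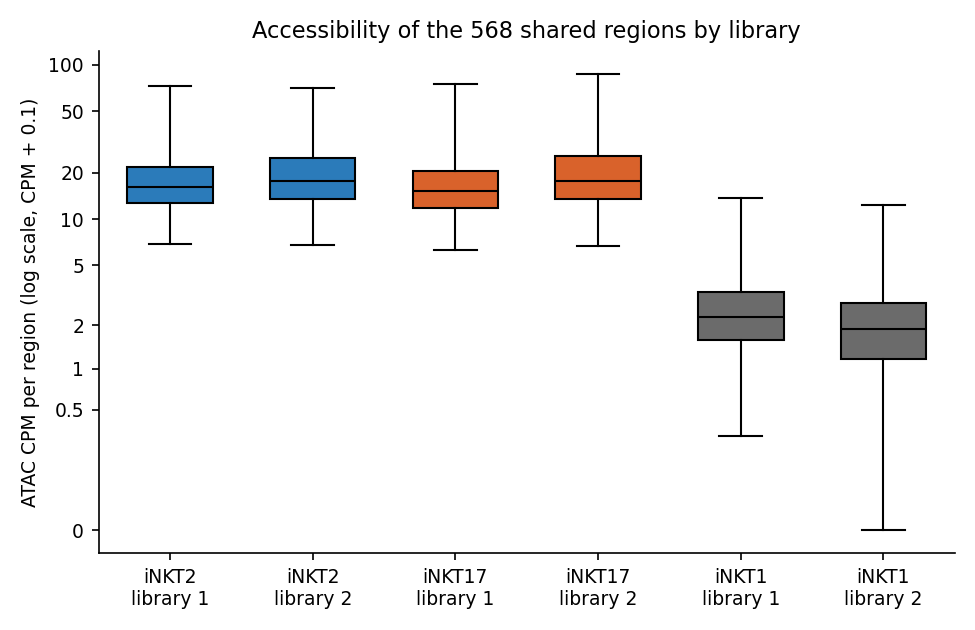
ATAC CPM (log scale after adding 0.1) of the 568 shared regions in each library; boxes show the quartiles and median, whiskers the lowest and highest region. Library medians lie between 15.2 and 17.7 CPM in iNKT2 and iNKT17 cells and at 2.28 and 1.88 CPM in iNKT1 cells, the gap that the choice of regions requires.

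Between the sublineages that share them, the regions differed little, as the factor of 2 in the rule imposes. The iNKT17 to iNKT2 ratio had a median of 0.984, and the iNKT17 mean was the higher in 268 regions. The iNKT17 and iNKT2 library ranges overlapped in 289 regions. Both iNKT17 libraries stood above both iNKT2 libraries in 127, and both iNKT2 libraries stood above both iNKT17 libraries in 152. The same shares over all regions were not computed, so these counts describe the shared regions only.

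The strongest shared region lay in Col6a4, which encodes a collagen VI chain (chr9:106071680-106072273, mm10 coordinates as deposited, as are all regions below). It measured 66.9 and 71.0 CPM in iNKT2, 75.5 and 83.9 in iNKT17 and 6.12 and 3.84 in iNKT1 libraries, yet Col6a4 RNA did not exceed 1.63 CPM in any library. The Dip2c promoter region (chr13:9276271-9277233), which holds the printed window, measured 49.8 and 68.5 CPM in iNKT2, 70.2 and 87.6 in iNKT17 and 5.77 and 8.67 in iNKT1 libraries. Next in height were regions at Smarce1, a subunit of the BAF chromatin remodeller, at Mafg, a small Maf transcription factor, and at Nfatc2, a calcium-regulated transcription factor of T cells. Susd4 and Sox4 promoters and regions at Gypc, Prl5a1, Cfap53 and Itgb3 were also among the 12 with the highest lower mean.

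By contrast with iNKT1 cells (0.5 CPM added to each mean), the leading region was intergenic, 143692 bp from Frmd6, a FERM-domain protein of the Hippo pathway (chr12:70681392-70682136). It measured 28.4 and 46.5 CPM in iNKT2, 57.5 and 73.6 in iNKT17 and 0.768 and 0.314 in iNKT1 libraries. A region in Eng, which encodes the TGF-β co-receptor endoglin (chr2:32667641-32668511), measured 14.7 and 16.7 CPM in iNKT2, 21.0 and 23.2 in iNKT17 and 0.582 and 0 in iNKT1 libraries. The Pou2af1 promoter (chr9:51213395-51214303), of a B cell transcriptional coactivator, measured 35.5 and 38.5 CPM in iNKT2, 45.9 and 55.1 in iNKT17 and 1.82 and 1.14 in iNKT1 libraries. Others of the 12 with the largest contrast were assigned to Prl5a1, Trim37, Dhx32, Mtx2, Eif4e3, Nr5a2 and Tsg101.

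At the 4-fold threshold, the 3 regions just inside were assigned to Nfatc2 (55.9, 52.4 and 13.1 CPM in iNKT2, iNKT17 and iNKT1 cells), Fignl2 (12.3, 10.2 and 2.55 CPM) and Wdfy2 (10.8, 14.2 and 2.70 CPM). The 3 just outside were assigned to Barx2 (10.9, 18.1 and 2.72 CPM), Prodh (17.7, 11.3 and 2.82 CPM) and Icos (19.9, 20.7 and 4.99 CPM). These are values on either side of a line through a continuous range. Icos thus holds a region just outside the line as well as the shared region described below.

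Shared regions lay away from gene starts. Only 51 (8.98%) had their centre within 1000 bp of a known start, against 24.3% of all 54489 regions up to the width limit. Another 314 (55.3%, against 42.8%) lay elsewhere in a protein-coding gene, exons and introns not being separated in the annotation used, and 203 (35.7%, against 33.0%) between protein-coding genes. Where the assigned gene had a known start, for 458 regions, the distance was taken to the nearest of its starts. The median was 27.9 kb, against 13.3 kb over all regions, and 92 of the 458 lay more than 100000 bp away. Regions open mainly in iNKT17 cells (at least 10 CPM and 4 times both other means, 833 regions) and mainly in iNKT2 cells (792) were near a start in 4.56% and 3.41%, and those open mainly in iNKT1 cells (399) in 7.27%. Starts were known for 79.9% of protein-coding genes, so shares near a start are lower limits in every set.

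**Figure D2:**
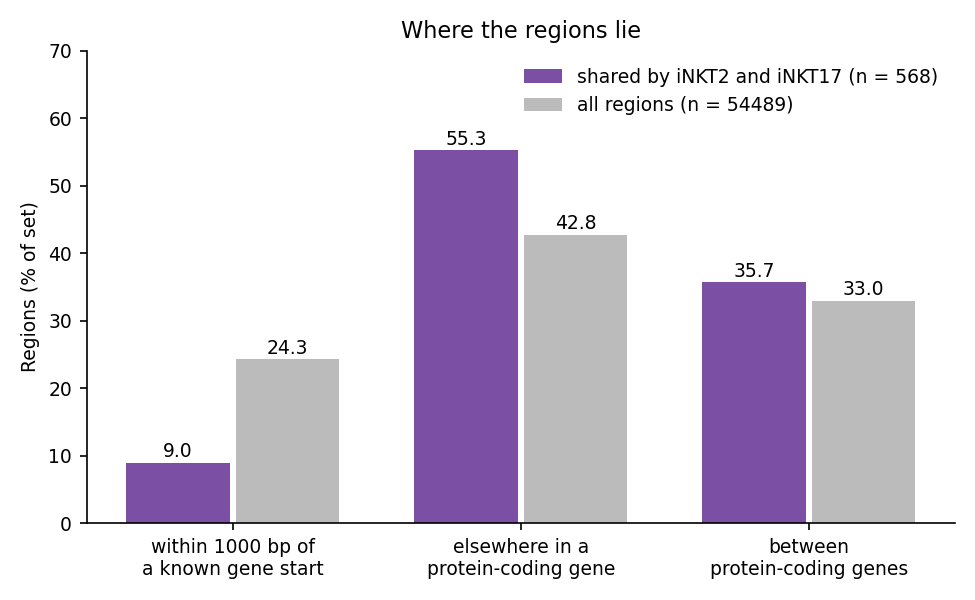
Share of regions (%) by location for the 568 shared regions and all 54489 regions up to the width limit. Shared regions are fewer near known gene starts (8.98% against 24.3%) and more frequent elsewhere in genes (55.3% against 42.8%).

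The median width was 655 bp, close to that of regions open mainly in iNKT17 (698 bp) or mainly in iNKT1 cells (649 bp), while those open mainly in iNKT2 cells had a median of 88 bp. Chromosome 11 held most shared regions (57), and the X chromosome held 2 of its 1140 regions (0.175%); over the autosomes the share ran from 0.598% on chromosome 10 to 1.44% on chromosome 3. Of the 568, 109 (19.2%) lay within 50000 bp of another shared region.

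Each region was assigned to the protein-coding gene that spans its centre or, failing that, to the nearest one, which gave 495 genes. Of these, 438 had 1 shared region, 45 had 2, 8 had 3 (Gypc, Dpp4, Zbtb10, Npas2, Sox4, Mtss1, Ddr1 and Nav2) and 4 had 4 (Prl5a1, Mtx2, Prickle1 and Msi2). The assignment says nothing of which gene a region acts on. For Prl5a1, a placental prolactin-family gene with no RNA count in any library, the 4 regions lay 266125 to 361070 bp from the gene, in the interval that separates it from Sox4, which encodes an HMG-box transcription factor of T cell development. That interval also held a region assigned to Sox4 itself (chr13:28551462-28552111), with 17.15 and 25.9 CPM in iNKT2, 10.7 and 19.2 in iNKT17 and 0.722 and 0.823 in iNKT1 libraries. The 4 regions given to Mtx2 likewise lay 192721 to 271223 bp from it, and the 4 of Prickle1 116464 to 177161 bp, whereas all 4 of Msi2, an RNA-binding protein, lay inside the gene.

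The same 495 genes held 3454 other regions. Over these, the median log2 ratio was 0.72 for iNKT2 over iNKT1 and 0.75 for iNKT17 over iNKT1, against 0.17 and 0.19 over the 50467 regions of all other genes. These comparisons share the iNKT1 libraries, and the regions share the libraries that chose the 568, so the values are a description.

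At Dpp4, a surface peptidase, 3 of 8 regions were shared, at 564, 17309 and 21212 bp downstream of the start. The middle one (chr2:62394637-62395207) measured 17.095 and 22.9 CPM in iNKT2, 15.0 and 26.5 in iNKT17 and 0.911 and 1.098 in iNKT1 libraries. At Nav2, a microtubule-associated neuron navigator protein, 3 of 37 regions were shared, at 5291, 89064 and 183136 bp. The region nearest its start (chr7:49251112-49251848) measured 15.3 and 18.7 CPM in iNKT2, 13.6 and 18.5 in iNKT17 and 1.14 and 0.510 in iNKT1 libraries. Sox13 had 2 of 13 regions in the set, at 11479 and 17178 bp, and Plcb4 2 of 19, at 121154 and 126428 bp.

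**Figure D3:**
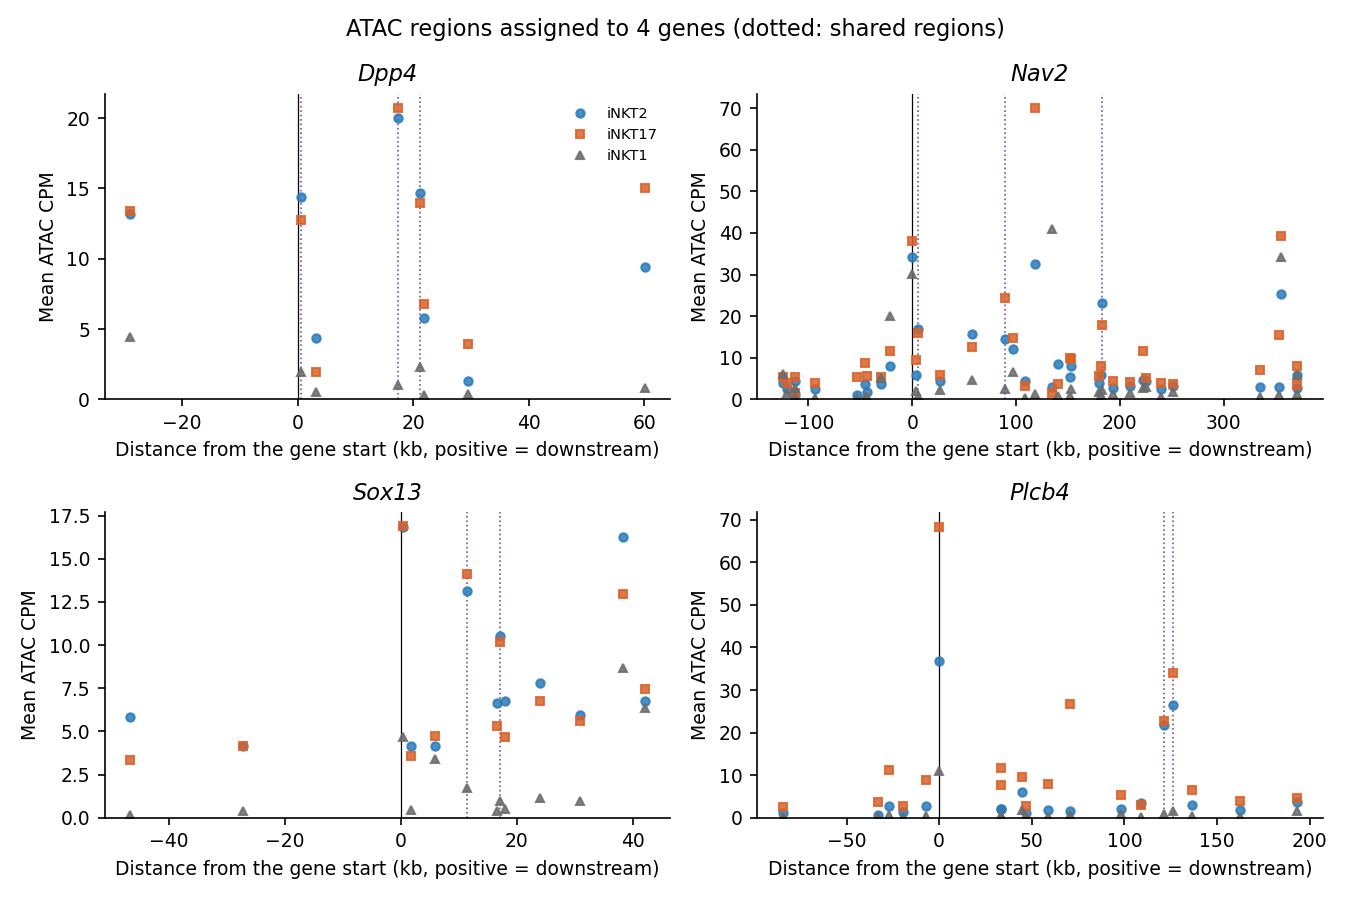
Mean ATAC CPM in each sublineage for every region assigned to Dpp4, Nav2, Sox13 and Plcb4, against distance from the nearest known start of the gene (kb). Dotted lines mark the 10 shared regions. For Nav2 and Plcb4 more than 1 start is drawn at the same origin, so their regions do not follow the order along the chromosome. At these lines iNKT2 and iNKT17 means lie together above iNKT1, while a start of Nav2 has all 3 sublineages open.

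RNA was tested for the genes assigned to shared regions. Of 495 genes, 490 were matched to the RNA table and 361 passed the low-count filter (423 of the 568 regions); of the 129 that did not pass, 86 had no count in any library. In iNKT2 relative to iNKT1 cells 20 genes were higher (5.54%), 2 lower and 339 did not pass the test, where 0.533% of all 12372 tested genes were higher and 0.752% lower (1.29% either way). In iNKT17 relative to iNKT1 cells 24 were higher (6.65%), 1 lower and 336 did not pass, where 0.986% of all tested genes were higher and 1.01% lower (2% either way). These comparisons share the iNKT1 libraries. Between iNKT17 and iNKT2 cells 2 were higher in iNKT17, 1 lower and 358 did not pass, where 0.436% of all tested genes were higher and 0.275% lower (0.711% either way). The 2 RNA libraries of a sublineage differed widely (common biological coefficient of variation 1.30 in edgeR), and the counts moved with the setting. DESeq2 gave 55 and 73 higher in iNKT2 and iNKT17 relative to iNKT1 cells. The share that DESeq2 called over all tested genes was not computed, so these counts cannot be set against the edgeR shares.

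Most of these genes did not pass the test. Their median log2 fold change was 0.50 for iNKT2 against iNKT1 (0.09 over all tested genes), 0.56 for iNKT17 against iNKT1 (−0.03) and 0.16 for iNKT17 against iNKT2 (−0.09). With genes that had no count in a group set at their bound of 3 counts over the group, the medians were 0.50, 0.57 and 0.15. Leaving out a library moved the first to between 0.29 (without iNKT2 library 2) and 1.01 (without iNKT1 library 1) and the second to between 0.28 (without iNKT17 library 2) and 0.84 (without iNKT1 library 1). The third lay between 0 (without iNKT17 library 2) and 0.21 (without iNKT2 library 2). Both libraries stood above both iNKT1 libraries for 143 of 361 genes in iNKT2 cells (39.6%, background 23.4%) and below them for 55 (15.2%, background 20.7%). In iNKT17 cells both stood above for 128 (35.5%, background 18.2%) and below for 53 (14.7%, background 22.3%). Between iNKT17 and iNKT2 cells the counts were 101 above (28.0%, background 16.2%) and 78 below (21.6%, background 22.9%).

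**Figure D4:**
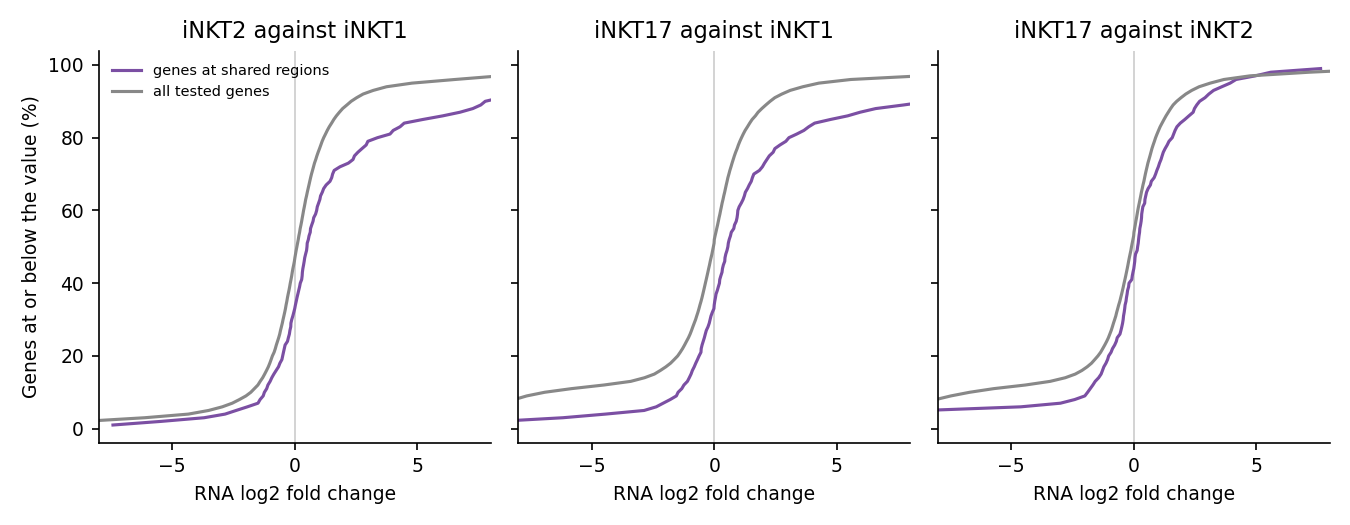
Cumulative percentage of genes (percentiles 1 to 99) by RNA log2 fold change for the 361 tested genes at shared regions and all 12372 tested genes. The curve of the genes at shared regions lies to the right in both comparisons with iNKT1 (medians 0.50 and 0.56) and nearer the other in iNKT17 against iNKT2 (0.16).

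Genes with several shared regions and genes with a single one were also counted apart. Of 48 tested genes with 2 or more, 8 were called higher and 0 lower than in iNKT1 cells in iNKT2, and likewise in iNKT17, with median log2 fold changes of 2.44 and 2.46. Of 313 with 1, iNKT2 cells had 12 higher and 2 lower and iNKT17 cells 16 higher and 1 lower, with medians of 0.38 and 0.44. Over all tested genes 0.533% were higher and 0.752% lower in iNKT2 cells, and 0.986% and 1.01% in iNKT17 cells. By place, 14 and 16 of 224 genes with a region inside the gene were higher in iNKT2 and iNKT17 cells, 6 and 8 of 123 with a region between genes, and 2 and 2 of 30 with a region near a start. The median log2 fold changes in iNKT2 and iNKT17 cells were 0.40 and 0.47 inside genes, 0.56 and 0.55 between genes, and 4.56 and 3.70 near a start. Near a start means within 1000 bp of any known start, and for 19 of the 30 genes it was their own. The fitted sizes there include genes with almost no iNKT1 count, such as Sox4 and Dip2c. Lower calls were 1 near a start in each sublineage and 1 inside genes in iNKT2 cells. A gene can count under more than 1 place.

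The 20 genes described next were called higher in each comparison with iNKT1 cells. Both comparisons use the same iNKT1 libraries, so their values are given side by side. With only the 2 groups compared in the fit, 13 of the 20 iNKT2 calls and 18 of all 24 iNKT17 calls remained, and the calls lost are given beside each gene. Receptors and their signalling chains come first. Icos, a costimulatory receptor of the CD28 family, measured 1419 and 1020 CPM in iNKT2, 1362 and 1431 in iNKT17 and 113 and 95.4 in iNKT1 libraries. Every iNKT2 and iNKT17 library lay far above both iNKT1 libraries (log2 fold change 3.55 ± 0.24 SE, adjusted p = 0.00013, in iNKT2, and 3.75 ± 0.25, adjusted p = 5.28e-05, in iNKT17). Its shared region lay 1841 bp outside the gene (chr1:61001870-61002457), with 8.86 and 15.1 CPM in iNKT2, 9.25 and 13.6 in iNKT17 and 1.09 and 1.65 in iNKT1 libraries. Cd247, the CD3ζ signalling chain, measured 743 and 810 CPM in iNKT2, 651 and 480 in iNKT17 and 207 and 234 in iNKT1 libraries, a smaller difference on a gene that all 3 expressed (log2 fold change 1.82 ± 0.25 in iNKT2, adjusted p = 0.0067, and 1.36 ± 0.25 in iNKT17, adjusted p = 0.0213, which became 0.072 without iNKT1 library 1 and 0.101 with only the 2 groups fitted).

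Ccr4, the receptor for the chemokines CCL17 and CCL22, is the called gene with a shared region at its start (chr9:114496358-114496819, 44 bp upstream by its centre). The region measured 25.1 and 21.4 CPM in iNKT2, 13.8 and 16.98 in iNKT17 and 3.84 and 2.63 in iNKT1 libraries. Of 5 regions at Ccr4, another 1 was open mainly in iNKT1 cells. Ccr4 RNA measured 98.9 and 197 CPM in iNKT2, 47.1 and 79.3 in iNKT17 and 0 and 0.12 in iNKT1 libraries, so that RNA was nearly absent where the promoter kept a low signal. The RNA log2 fold change was 11.14 ± 1.30 in iNKT2 (adjusted p = 0.00267) and 9.91 ± 1.25 in iNKT17 (adjusted p = 0.00249, and 0.145 with only the 2 groups fitted). These sizes rest on a few iNKT1 counts: they were 15.05 and 13.85 without iNKT1 library 2, and 10.20 and 8.98 without library 1. Dpp4, also with a region near its start, measured 227 and 162 CPM in iNKT2, 9.81 and 95.1 in iNKT17 and 0.0655 and 0 in iNKT1 libraries. With 2 counts in iNKT1, the ratios were 6244 (95% counting interval 1728 to 51566) in iNKT2 and 1550 (429 to 12805) in iNKT17 (adjusted p = 0.01 and 0.0117, and 0.0601 and 0.0735 without iNKT1 library 1, 0.161 and 0.196 without library 2); with only the 2 groups fitted the iNKT17 value was 0.239.

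Other receptors and membrane proteins followed. Igf1r, the receptor for insulin-like growth factor 1, measured 38.4 and 20.1 CPM in iNKT2, 386 and 341 in iNKT17 and 0.262 and 0.0299 in iNKT1 libraries (adjusted p = 0.00213 in iNKT2, and 0.326 with only the 2 groups fitted, and 0.000254 in iNKT17). Ntrk3, a neurotrophin receptor, measured 325 and 396 CPM in iNKT2, 301 and 284 in iNKT17 and 61.4 and 96.0 in iNKT1 libraries, with an adjusted p of 0.019 in iNKT17 that became 0.0651 without iNKT1 library 1 and 0.0947 with only the 2 groups fitted. Emb, the membrane glycoprotein embigin, measured 197 and 122 CPM in iNKT2, 620 and 745 in iNKT17 and 1.31 and 0.15 in iNKT1 libraries. Its adjusted p of 0.018 in iNKT2 became 0.619 and 0.385 without iNKT2 library 1 or 2, and 0.00663 in iNKT17 became 0.109 and 0.198 without iNKT17 library 1 or 2. Ptprf, a receptor-type tyrosine phosphatase, measured 10.4 and 68.9 CPM in iNKT2, 127 and 119 in iNKT17 and 0.0982 and 0.659 in iNKT1 libraries (adjusted p = 0.0495 in iNKT2, and 0.254 with only the 2 groups fitted, and 0.0159 in iNKT17). These levels lay apart from iNKT1 in each gene. Eng measured 69.0 and 96.4 CPM in iNKT2, 60.2 and 74.8 in iNKT17 and 0.196 and 0.0599 in iNKT1 libraries (log2 fold change 9.30 ± 1.14 in iNKT2, adjusted p = 0.00347, and 9.003 ± 1.13 in iNKT17, adjusted p = 0.00249, which became 0.0653 with only the 2 groups fitted). Without iNKT1 library 1 the values were 10.32 and 10.03, and without library 2 they were 8.70 and 8.42. Endothelial cells also make endoglin, and the list of 5 stroma and epithelium markers summed to 152 and 129 CPM in iNKT2, 91.2 and 64.6 in iNKT17 and 5.53 and 19.2 in iNKT1 libraries, with Krt5 and Krt8 at 0 throughout. Pecam1 made up most of it at 152 and 128 CPM in iNKT2 and 58.6 and 34.2 in iNKT17 libraries, against 3.63 and 0.0599 in iNKT1 libraries. Epcam measured 17.8 and 30.4 CPM in iNKT17, 0 in both iNKT2 and 1.80 and 0 in iNKT1 libraries, and Col1a1 14.8 CPM in iNKT17 library 1, 19.1 in iNKT1 library 2 and under 1 in the other 4. The part of such cells in the Eng result was not tested, and in bulk samples fewer cells of a type and less RNA per cell cannot be told apart.

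Transcriptional regulators formed the next group. Runx1, a Runt-domain factor needed for iNKT development, measured 71.9 and 74.4 CPM in iNKT2, 179 and 213 in iNKT17 and 0.196 and 0 in iNKT1 libraries, the iNKT1 level being at the edge of detection. The log2 fold change was 9.51 ± 1.13 in iNKT2 (adjusted p = 0.00285) and 10.94 ± 1.18 in iNKT17 (adjusted p = 0.00112). The handful of iNKT1 counts sets these sizes, which were 14.07 and 15.50 without iNKT1 library 1 and 8.52 and 9.97 without library 2. Of its 2 shared regions, 1 lay in the gene (chr16:92747740-92748622, with 11.5 and 12.2 CPM in iNKT2, 14.9 and 20.3 in iNKT17 and 1.86 and 1.53 in iNKT1 libraries) and 1 lay 327109 bp away. Sox13, an HMG-box factor of γδ and other IL-17-producing T cells, measured 607 and 591 CPM in iNKT2, 578 and 568 in iNKT17 and 11.3 and 38.4 in iNKT1 libraries. The iNKT2 and iNKT17 levels were alike and above both iNKT1 libraries (log2 fold change 4.59 ± 0.55 in iNKT2, adjusted p = 0.00604, and 4.53 ± 0.55 in iNKT17, adjusted p = 0.00412). The adjusted p became 0.0525 without iNKT2 library 2, and 0.12 and 0.238 in iNKT17 without iNKT17 library 1 or 2. The fold changes were 3.95 and 3.89 without iNKT1 library 1 and 5.74 and 5.69 without library 2. Lmo4, a LIM-only cofactor, measured 105 and 89.4 CPM in iNKT2, 332 and 392 in iNKT17 and 3.47 and 7.01 in iNKT1 libraries, with its shared region 55556 bp from the gene (adjusted p = 0.00232 in iNKT2 and 0.000254 in iNKT17).

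Genes of the cytoskeleton and of intracellular signalling made up the rest. Nav2 measured 51.1 and 55.9 CPM in iNKT2, 472 and 536 in iNKT17 and 0.196 and 0.12 in iNKT1 libraries (log2 fold change 8.37 ± 0.48 in iNKT2, adjusted p = 0.000101, and 11.61 ± 0.53 in iNKT17, adjusted p = 1.35e-05). Map7, a microtubule-associated protein, measured 9.65 and 14.6 CPM in iNKT2 and 101.2 and 100.7 CPM in iNKT17 libraries and was not counted in iNKT1 libraries. Set against a floor of 3 counts over the iNKT1 group, this is at least 258-fold higher for iNKT2 and at least 2151-fold higher for iNKT17 cells. Dst, a linker of cytoskeletal filaments, measured 11.6 and 8.91 CPM in iNKT2 and 129 and 114 in iNKT17, against 2 counts in iNKT1 (adjusted p = 0.0264 and 0.00457). Tns4, a tensin, measured 21.4 and 13.5 CPM in iNKT2 and 262 and 176 in iNKT17, and She, an SH2-domain adaptor, 9.82 and 22.8 CPM in iNKT2 and 113 and 97.4 in iNKT17, each against 1 count in iNKT1 (adjusted p from 0.000254 to 0.0179). All 5 of these genes were nearly silent in iNKT1 libraries. In iNKT17 libraries each stood above both iNKT2 libraries, as did 16.2% of all tested genes. Of the 5, only Nav2 passed the test of iNKT17 against iNKT2. With only the 2 groups fitted, the iNKT2 calls of Dst, Map7, She and Tns4 were lost (adjusted p = 0.635, 0.485, 0.472 and 0.447), and the iNKT2 and iNKT17 calls of Nav2 were not.

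Plcb4, a phospholipase C, measured 14.7 and 2.43 CPM in iNKT2, 134 and 193 in iNKT17 and 0.0655 and 0.0599 in iNKT1 libraries (adjusted p = 0.0171 in iNKT2, and 0.704 with only the 2 groups fitted, and 0.00185 in iNKT17). Camk4, a calcium-dependent kinase, measured 207 and 156 CPM in iNKT2, 242 and 355 in iNKT17 and 31.4 and 38.5 in iNKT1 libraries, and Niban1, a stress-induced protein, 672 and 778 CPM in iNKT2, 988 and 988 in iNKT17 and 274 and 227 in iNKT1 libraries. Both were present in iNKT1 cells and higher in every library of the others (Niban1 log2 fold change 1.53 ± 0.22 in iNKT2, adjusted p = 0.00859, and 1.98 ± 0.22 in iNKT17, adjusted p = 0.00131).

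**Figure D5:**
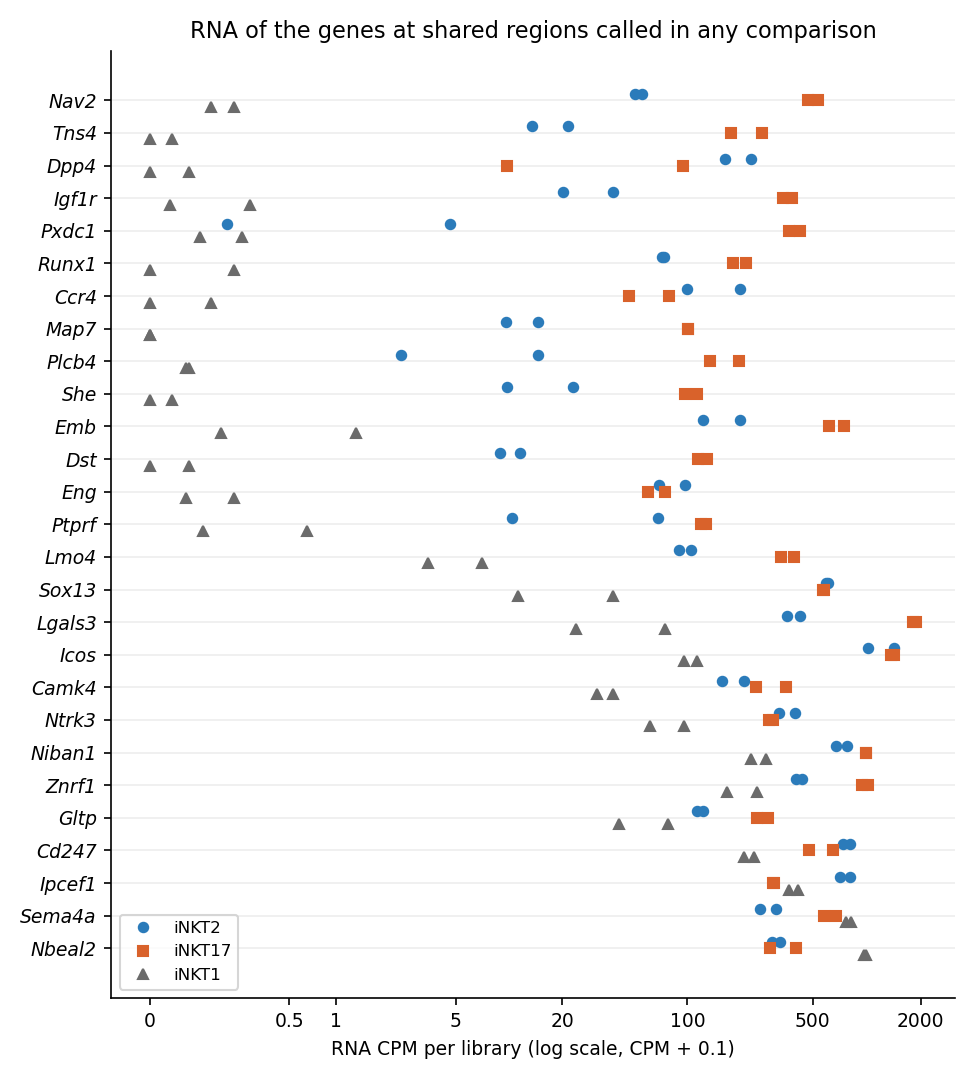
RNA CPM per library (log scale after adding 0.1) of the 27 genes at shared regions that passed the test in any comparison, ordered by the mean of iNKT2 and iNKT17 over iNKT1. In 24 genes both iNKT17 libraries lie above both iNKT1 libraries, and Ipcef1, Sema4a and Nbeal2 stand at the bottom.

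A further 4 genes were called in iNKT17 and not in iNKT2 cells, and they are named after their values were seen. Lgals3, the lectin galectin-3, measured 357 and 428 CPM in iNKT2, 1822 and 1897 in iNKT17 and 75.1 and 23.8 in iNKT1 libraries (adjusted p = 0.0564 in iNKT2 and 0.00541 in iNKT17, which became 0.0968 and 0.196 without iNKT17 library 1 or 2). Gltp, a glycolipid transfer protein, Znrf1, a ubiquitin ligase, and Pxdc1 were the others. Pxdc1 measured 0.169 and 4.64 CPM in iNKT2, 369 and 423 in iNKT17 and 0.229 and 0.0898 in iNKT1 libraries, and its adjusted p of 0.0438 rose to between 0.251 and 0.977 when any iNKT1 or iNKT17 library was left out. Gltp passed at 0.0364, and reached 0.17 without iNKT1 library 2 and 0.111 with only the 2 groups fitted. Whether iNKT17 and iNKT2 cells differ in these 4 genes was tested, and none passed (adjusted p from 0.0832 to 0.458).

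Genes called lower by edgeR beside more accessible chromatin numbered 2 in iNKT2 cells (0.554%, against 0.752% of all tested genes). In iNKT17 cells there was 1 (0.277%, against 1.01%). Both libraries stood below both iNKT1 libraries for 55 of 361 tested genes in iNKT2 cells (15.2%, background 20.7%). In iNKT17 cells the count was 53 (14.7%, background 22.3%). DESeq2 called 15 lower in iNKT2 and 11 in iNKT17 cells, and its share over all tested genes was not computed. Nbeal2, a BEACH-domain protein of granule formation, measured 330 and 297 CPM in iNKT2, 402 and 290 in iNKT17 and 973 and 991 in iNKT1 libraries, with both sublineages below iNKT1 (log2 fold change −1.65 ± 0.25, adjusted p = 0.0105, and −1.50 ± 0.24, adjusted p = 0.0113). Its shared region (chr9:110624898-110625294) lay 29065 bp downstream of the Nbeal2 start and 703 bp upstream of the start of Nradd, a gene with a shared region of its own. Sema4a, a semaphorin, measured 311 and 253 CPM in iNKT2, 678 and 576 in iNKT17 and 770 and 816 in iNKT1 libraries, and was called lower in iNKT2 (−1.49 ± 0.23, adjusted p = 0.0129) and not in iNKT17 (−0.34 ± 0.23, adjusted p = 0.631); the difference between iNKT17 and iNKT2 did not pass (adjusted p = 0.0683).

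Between iNKT17 and iNKT2 cells, the RNA of 3 genes differed. Only their shared regions were alike by choice, and other regions of the genes need not be. Of 37 regions at Nav2, 1 was open mainly in iNKT17 cells, 0 mainly in iNKT2 cells and 1 mainly in iNKT1 cells. Igf1r had 2 of 18 open mainly in iNKT17 cells and Ipcef1 0 of 11, with 0 mainly in iNKT2 cells at either. Another Nav2 region outside the set (chr7:49364399-49365110) averaged 32.6 CPM in iNKT2, 70.1 in iNKT17 and 1.31 in iNKT1 cells. Nav2 RNA was higher in iNKT17 by 3.24 ± 0.36 on the log2 scale (adjusted p = 0.00333) and Igf1r RNA by 3.63 ± 0.65 (adjusted p = 0.0422). Nav2 passed in all 10 other settings, and Igf1r in 9 of 10, the call being lost with the libraries paired across replicate numbers, a pairing chosen after seeing the data (adjusted p = 0.119). The Igf1r region (chr7:68070552-68071135) measured 22.1 and 24.8 CPM in iNKT17, 13.0 and 10.5 in iNKT2 and 3.03 and 2.00 in iNKT1 libraries, both iNKT17 values being the higher. Ipcef1, a cytohesin-binding protein, measured 300.1 and 306 CPM of RNA in iNKT17, 813 and 713 in iNKT2 and 415 and 369 in iNKT1 libraries, lower in iNKT17 than in iNKT2 by −1.33 ± 0.23 (adjusted p = 0.0369). The Ipcef1 call was lost without iNKT2 library 1 (adjusted p = 0.11), with only the 2 groups fitted (0.127) and in the crossed pairing (0.0861). Its region (chr10:7035392-7035897) ran the other way, with 18.6 and 24.3 CPM in iNKT17, 12.4 and 15.9 in iNKT2 and 2.12 and 1.18 in iNKT1 libraries.

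The promoter regions stood at genes of widely different RNA level. The 51 regions near a start belonged to 50 genes by assignment, of which 30 were tested and 11 had no RNA count in any library, against 86 of all 490 matched genes. Those at 0 included Cebpa, the myeloid C/EBPα factor, Nr3c2, the mineralocorticoid receptor, Il9r, the IL-9 receptor, and Scnn1g, a sodium channel subunit. In 37 of the regions the start was that of the assigned gene. At these 36 genes, 19 were tested, 13 had both iNKT2 libraries and 11 both iNKT17 libraries above both iNKT1 libraries (background 23.4% and 18.2% of all tested genes), and Ccr4 and Dpp4 were called. Over all 490 matched genes, 106 (21.6%) had a mean below 1 CPM in every sublineage, against 29.8% of genes with any region.

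The printed promoters show how these levels ran. Sox4 RNA measured 65.6 and 64.3 CPM in iNKT2, 0.901 and 14.7 in iNKT17 and 0 and 0 in iNKT1 libraries, with 46.3 and 40.9 CPM in iNKT2, 42.9 and 55.2 in iNKT17 and 5.66 and 7.06 in iNKT1 libraries at its promoter (chr13:28953250-28954013). Susd4, a complement regulator, measured 78.8 and 34.5 CPM of RNA in iNKT2 and 0 in all iNKT17 and iNKT1 libraries, while its promoter stood at 44.3 and 46.4 CPM in iNKT2, 45.5 and 45.0 in iNKT17 and 4.40 and 5.53 in iNKT1 libraries. Like accessibility thus stood beside RNA in iNKT2 and none counted in iNKT17. Pou2af1 RNA was counted mainly in iNKT17 libraries, at 0 and 0.615 CPM in iNKT2, 8.46 and 44.0 in iNKT17 and 0.0327 and 0 in iNKT1 libraries, and Dip2c RNA measured 8.53 and 3.04 CPM in iNKT2, 7.59 and 35.2 in iNKT17 and 0.0327 and 0.0299 in iNKT1 libraries. None of these 4 genes passed the RNA test in any comparison (adjusted p from 0.116 to 1).

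Lists of genes known in these cells held from 0 to 4 shared regions each, where the share over all regions was 1.04%. None of 126 regions at 20 type 1 genes was shared, nor any of 196 at 15 genes of naive, memory and egress functions or 74 at 15 genes of metabolism. Type 2 genes held 4 of 138 (2.90%, at Gata3, Ccr4, Irf4 and Icos), type 17 genes 4 of 144 (2.78%, at Rora, Itgb3 and, with 2, Sox13), iNKT identity regulators 4 of 349 (1.15%, at Nfkb1, Gata3 and, with 2, Runx1), costimulation and TCR signalling genes 4 of 268 (1.49%, at Icos, Pdcd1, Cd247 and Nfatc2) and cytokine receptor and STAT genes 4 of 191 (2.09%, at Il6st, Stat5b and, with 2, Tgfbr2).

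In RNA, relative to iNKT1 cells, 6 of 14 tested type 2 genes rose in iNKT2 with 0 falling, and 5 rose in iNKT17 with 1 falling. Of 16 tested type 17 genes, 2 rose in iNKT2 and 8 in iNKT17, with 0 falling. Of 20 identity regulators 6 rose in each with 0 falling, and of 17 tested type 1 genes 9 fell in iNKT2 and 13 in iNKT17, with 0 rising. Costimulation and TCR signalling had 2 rising and 1 falling of 20 in each. Among 25 cytokine receptor and STAT genes iNKT2 had 2 rising and 2 falling, and iNKT17 had 5 rising and 2 falling. Among 14 tested naive, memory and egress genes iNKT2 had 3 rising and 3 falling, and iNKT17 had 2 rising and 1 falling. Metabolism had 1 rising of 15 in each. Over all tested genes 0.533% were higher and 0.752% lower in iNKT2 cells, and 0.986% and 1.01% in iNKT17 cells.

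Several of the listed genes had shared regions and no RNA call. Rora, a nuclear receptor of type 17 cells, had a region 573264 bp into the gene (chr9:69226482-69227618) with 23.4 and 21.1 CPM in iNKT2, 26.5 and 26.5 in iNKT17 and 1.82 and 1.49 in iNKT1 libraries. Rora RNA measured 149 and 113 CPM in iNKT2, 105 and 123 in iNKT17 and 14.9 and 28.4 in iNKT1 libraries, apart from iNKT1 in both sublineages and just short of the threshold (adjusted p = 0.0643 and 0.0676). Itgb3, the integrin β3 chain, measured 414 and 378 CPM of RNA in iNKT2, 546 and 439 in iNKT17 and 16.7 and 0.0898 in iNKT1 libraries, with a wide spread in iNKT1 (adjusted p = 0.633 and 0.459). Pdcd1, the inhibitory receptor PD-1, measured 91.4 and 157 CPM in iNKT2, 668 and 674 in iNKT17 and 1.21 and 19.8 in iNKT1 libraries (adjusted p = 0.471 and 0.127).

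Gata3, the type 2 transcription factor, had its region 279052 bp outside the gene (chr2:9577603-9578449, with 15.4 and 13.5 CPM in iNKT2, 10.8 and 17.09 in iNKT17 and 2.93 and 1.84 in iNKT1 libraries). Gata3 RNA overlapped between the sublineages, at 155 and 152 CPM in iNKT2, 155 and 239 in iNKT17 and 126 and 225 in iNKT1 libraries. Nfkb1, an NF-κB subunit, overlapped between iNKT2 and iNKT1 and stood above both in iNKT17 (245 and 254 CPM in iNKT2, 376 and 341 in iNKT17 and 252 and 316 in iNKT1 libraries). Tgfbr2, a TGF-β receptor chain, measured 64.4 and 145 CPM of RNA in iNKT2, 237 and 248 in iNKT17 and 279 and 229 in iNKT1 libraries, while its intragenic region (chr9:116091074-116091748) measured 20.3 and 23.4 CPM in iNKT2, 26.0 and 33.1 in iNKT17 and 2.07 and 1.69 in iNKT1 libraries. None of these 3 genes passed the RNA test against iNKT1 (adjusted p from 0.321 to 1).

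Genes at regions open mainly in a single sublineage gave other counts. Of 431 tested genes at regions open mainly in iNKT17 cells, 31 were higher and 4 lower in iNKT17 relative to iNKT1 cells, and 9 higher and 8 lower in iNKT2, with medians of 0.50 and −0.01. Of 357 at regions open mainly in iNKT2 cells, 8 were higher and 9 lower in iNKT17, and 5 higher and 4 lower in iNKT2, with medians of −0.03 and 0.04. Of 257 at regions open mainly in iNKT1 cells, 4 were higher and 36 lower in iNKT17, and 3 higher and 28 lower in iNKT2, with medians of −1.25 and −1.10. Of all tested genes, 0.986% were higher and 1.01% lower in iNKT17 cells, and 0.533% and 0.752% in iNKT2 cells. The sets also differed in region width, with medians of 698 bp for iNKT17, 88 bp for iNKT2 and 649 bp for iNKT1. Of their matched genes, 29.1%, 47.0% and 15.8% had a mean below 1 CPM in every sublineage. The part of either in these counts was not tested, nor was the difference between the sets.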

How the data were processed

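Thymic iNKT2, iNKT17 and iNKT1 cells of FVB/N mice were measured by ATAC-seq and RNA-seq, 2 libraries each. The deposited values were raw counts per region and per gene. Per the submitters' processing notes, STAR 2.5.4, Bowtie2, MACS2, bedtools 2.27.1 and HOMER 4.9.1 were among the tools and mm10 and GRCm38 the builds. Which tool made which table, strand use, shared reads and per-sample peak calling are not given in the sources used here, so overlapping and antisense genes may share counts. RNA libraries were made with a stranded mRNA kit, per the labels' protocols. Nothing says that libraries came from separate animals, so p-values measure the spread between libraries, which may be technical.

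Gene counts were tested with edgeR 4.0.16 in R 4.3.3 (TMM scaling, a filter on low counts set by group, a robust quasi-likelihood fit of all 6 libraries without a replicate term, Benjamini-Hochberg adjustment over 12372 genes, calls at an adjusted p under 0.05). RNA CPM use TMM library sizes, ATAC CPM the column totals. SE were computed from the F statistic. Counting intervals are exact at 95% and cover counting error only. The steps were also run on simulated counts, and the outcome is not reported here.

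No genome of the build was at hand. Regions were given to the protein-coding gene spanning their centre, or else the nearest, in the RefSeq table of GRCm38.p6. The design had named the nearest gene start, but starts were known for 79.9% of genes, so spans replaced them after locations, but not RNA results, had been seen. That the builds match was checked: 68.7% of 9644 strong regions of like level lay within 1000 bp of a start, and 4.68% when moved by 100000 bp.

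Region members, lists and tests were chosen with earlier results of these data known. Named regions are the 12 strongest, the 12 with the largest fold, 3 on each side of the threshold, those at listed genes and the genes with most regions; named genes are those called in both comparisons with iNKT1, called lower, or called between iNKT17 and iNKT2. A few of the regions so chosen are not reported here. Other names were picked after their values were seen. RNA of iNKT1 cells sorted as CD4-positive or CD4-negative, donor T cells, single cells and a list of FVB names were not used here. Alternatives were DESeq2 1.42.0, other scaling, filters, samples, assignments and library sets.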

Additional observations from a re-analysis of the deposited data

Results flagged for a closer look

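At 3 genes with shared regions the RNA effect against iNKT1 cells differed between iNKT17 and iNKT2 cells, by the test of iNKT17 against iNKT2 itself (edgeR's quasi-likelihood test, 361 such genes tested). The effect was larger in iNKT17 by 3.63 on the log2 scale for Igf1r (adjusted p = 0.0422) and by 3.24 for Nav2 (adjusted p = 0.00333). For Ipcef1 it differed by −1.33 (adjusted p = 0.0369), with RNA lower in iNKT17 than in iNKT2 cells. Of 10 other settings, Nav2 passed in all, Igf1r in 9 and Ipcef1 in 7, with adjusted p up to 0.119 for Igf1r and up to 0.127 for Ipcef1. Both libraries of each sublineage stood apart in all 3 genes.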

How the results depend on the processing

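Counts below are genes at shared regions called higher and lower, for iNKT2 against iNKT1, iNKT17 against iNKT1, and iNKT17 against iNKT2. Where a setting changed the fit, the share called over all tested genes was not computed. The DESeq2 Wald test gave 55 and 15, 73 and 11, and 31 and 12. Without the low-count filter they were 37 and 12, 43 and 4, and 18 and 2. Fitting only the groups compared gave 17 and 6, 18 and 1, and 3 and 0; 13 of the 20 higher calls in iNKT2 and 18 of the 24 in iNKT17 remained, and of the 47 lost calls of named genes below, 14 were lost here. Assigning the nearest known start gave 13 and 1, 16 and 0, and 1 and 1, and counting only regions within 10000 bp of a start 4 and 1, 6 and 0, and 1 and 0. Leaving out a library gave 18 to 33 higher and 3 to 9 lower, 26 to 38 higher and 1 to 15 lower, and 7 to 10 higher and 0 to 14 lower. The count of 33, like that of 38, came without iNKT1 library 1, those of 15 and 14 without iNKT17 library 1, and that of 9 without iNKT2 library 2. Lower counts in iNKT2 against iNKT1 were also 7 without iNKT2 library 1, and in iNKT17 against iNKT1 3 without iNKT17 library 2.

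Same-numbered RNA libraries did not deviate together (r −0.13 for iNKT2 and iNKT1, 0.06 for iNKT17 and iNKT1, −0.04 for iNKT17 and iNKT2). A replicate block gave 20 and 3, 22 and 1, and 2 and 1; a crossed pairing, chosen after seeing the data, gave 16 and 3, 22 and 1, and 1 and 0. Protein-coding or lncRNA spans, also chosen then, gave 19 and 2, 22 and 1, and 2 and 1.

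TMM scaling of ATAC counts gave 476 shared regions, a 3-fold threshold 820, no width limit 568 and leaving out a library 525 to 649. Named genes kept call and direction in 453 of 500 cases and lost the call in 47, and none reversed. With 2 libraries a group and wide spread between them, small RNA differences were not detectable.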
